A study of Mus musculus with 6 samples.

Results

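The genes described here encode the translocases that carry proteins into mitochondria, the TOM proteins of the outer membrane and the TIM proteins of the intermembrane space and inner membrane. They were taken by symbol alone, as every row of the count tables whose symbol begins with Tomm or Timm followed by a digit. This gave 25 of 23282 rows, 11 Tomm and 14 Timm, and each had at least 1 count. RNA was counted in gastrocnemius muscle, a calf muscle, of male wild-type C57/BL6J mice aged 20 months. In 1 group, 3 mice had been given the triterpenoid inotodiol, found in the chaga mushroom, by mouth at 0.35 mg/kg every day for 10 weeks. The other 3 mice had been given the vehicle, a mixture of 40% PEG, 5% Tween 80 and 0.9% saline. By its title, the series concerns the loss of muscle with age, the function of mitochondria and LXR beta, a nuclear receptor for oxysterols. The comparison therefore asks whether transcripts of the import machinery differed between treated and untreated old mice, and whether its outer and inner parts differed alike.

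Most mitochondrial proteins are encoded in the nucleus and made in the cytosol, and they enter through the TOM complex. There the receptors Tomm20, Tomm22 and Tomm70 bind precursors and hand them to the channel Tomm40, which the small subunits Tomm5, Tomm6 and Tomm7 surround. Proteins with a cleavable presequence pass on through the TIM23 complex, pulled by a motor that Timm44 anchors, whereas carrier proteins are guided by the small chaperones of the intermembrane space to the TIM22 complex. Muscle fibres hold many mitochondria and depend on this route for nearly all of their respiratory chain.

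Libraries held from 8961893 to 9953764 counts, and pairs of libraries had Pearson correlations of log2 CPM (counts per 1e6 counts, scaled by the TMM method) from 0.937 to 0.955. Markers of skeletal muscle were abundant, with 166337 to 182436 unscaled CPM (relative to the library total) for 12 genes, so the tissue matched its label. Hepatocyte markers varied, with 15.8 to 86.6 unscaled CPM in vehicle and 100.01 to 645 in inotodiol libraries for 14 genes, and 11 exocrine pancreas genes reached 108 in inotodiol library 1 against at most 2.49 elsewhere. The precursor ribosomal RNA Rn45s took 3.97% to 6.82% of the counts in vehicle and 4.33% to 10.2% in inotodiol libraries. The 25 import genes together took 0.108% to 0.115% of the counts in vehicle and 0.0965% to 0.132% in inotodiol libraries. In whole muscle, fewer cells of a type and less RNA per cell cannot be told apart.

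Promoter windows from RefSeq (GRCm38.p6), each 300 bases long, were matched for 22 of the 25 genes. The genes left unmatched were Tomm7, Tomm40l and Timm21. One motif searched was CCGGAAG, the core bound by GABP, an Ets-family activator of nuclear genes for mitochondria. These letters stood on either strand in 8 of the 22 genes (36.4%), against 8.86% of 32851 windows of that length and 11.6% of the 21263 that belong to protein-coding genes. The 8 genes were Tomm22, Tomm34, Tomm70a, Timm8a2, Timm8b, Timm10, Timm10b and Timm23, which are 3 of 9 Tomm and 5 of 13 Timm genes. The consensus of NRF1, another such activator, stood in Tomm20 and Timm8b alone (9.09% of the genes, 6.38% of coding windows and 4.60% of all windows). The GC box GGGCGG stood in 45.5% of the genes, 46.2% of coding windows and 35.7% of all windows, and the receptor half-site TCAAGGTCA of ERR was found in Timm8b. The perfect DR4 repeat of the liver X receptors was in 0 of the 22 genes and in 5 of all windows, which says only that these letters are not there. AAGATGGC, the core of YY1, was in Timm50 alone. Each motif was searched on both strands. The 24 windows of the 22 genes had a median of 19 CpG dinucleotides and all windows a median of 7, and the part of this difference in the motif counts was not tested.

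**Figure D1:**
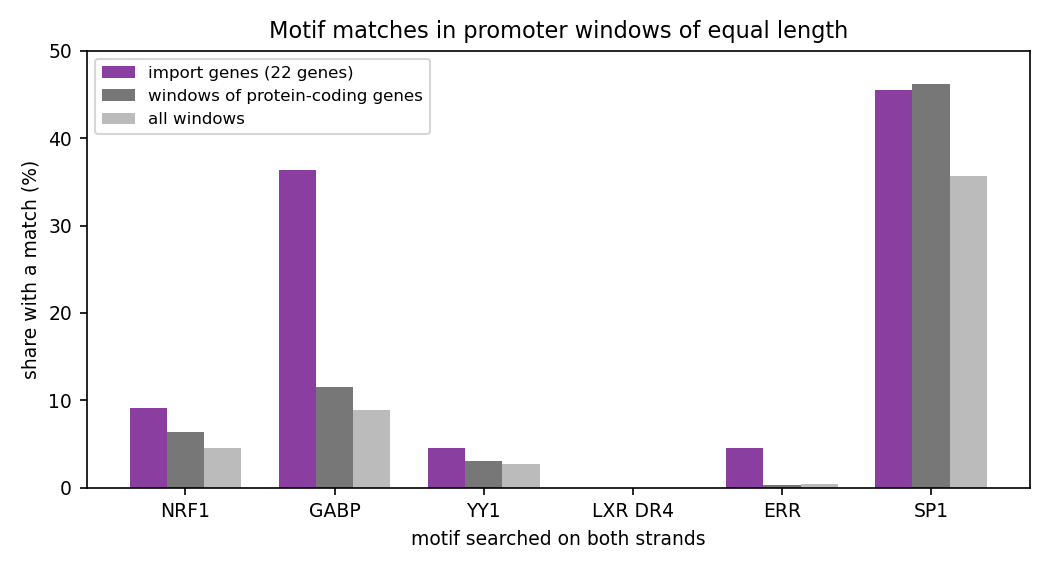
Share of genes or windows with at least 1 match (y axis, percent) for 6 motifs (x axis), for the 22 import genes with a window, for windows of protein-coding genes and for all windows. GABP matches were at 36.4% against 11.6% and 8.86%, whereas the SP1 box was at 45.5% against 46.2% and 35.7%.

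The upstream bases of 6 genes are printed 5′ to 3′ on the strand of the gene, in GRCm38.p6 and without annotated exons. They are the receptors Tomm20, Tomm22 and Tomm70a and the 3 further genes on which the comparison below turns, Tomm40, Tomm5 and Timm44. Capitals mark the NRF1 match and a GC box in Tomm20, a GABP match read on both strands in Tomm22, a GABP match and a GC box in Tomm70a, and GC boxes alone in Tomm40 (3) and Tomm5 (1). None of these motifs was found in the stretch of Timm44.
Tomm20 (chr8:126945922-126946171, minus strand): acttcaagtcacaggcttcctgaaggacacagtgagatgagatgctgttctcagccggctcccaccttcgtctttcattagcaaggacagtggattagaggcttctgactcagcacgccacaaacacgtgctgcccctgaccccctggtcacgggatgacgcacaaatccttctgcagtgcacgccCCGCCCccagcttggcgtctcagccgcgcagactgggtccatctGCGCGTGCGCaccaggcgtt
Tomm22 (chr15:79670618-79670860, plus strand): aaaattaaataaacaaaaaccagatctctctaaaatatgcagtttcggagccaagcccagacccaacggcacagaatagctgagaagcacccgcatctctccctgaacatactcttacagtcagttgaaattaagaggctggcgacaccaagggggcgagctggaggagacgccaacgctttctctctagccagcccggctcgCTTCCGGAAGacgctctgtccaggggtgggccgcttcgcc
Tomm70a (chr16:57121464-57121702, plus strand): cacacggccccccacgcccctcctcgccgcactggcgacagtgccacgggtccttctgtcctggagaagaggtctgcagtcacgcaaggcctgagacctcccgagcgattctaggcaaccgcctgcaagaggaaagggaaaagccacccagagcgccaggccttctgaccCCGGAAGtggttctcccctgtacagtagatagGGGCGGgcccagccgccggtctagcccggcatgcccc
Tomm40 (chr7:19715439-19715679, minus strand): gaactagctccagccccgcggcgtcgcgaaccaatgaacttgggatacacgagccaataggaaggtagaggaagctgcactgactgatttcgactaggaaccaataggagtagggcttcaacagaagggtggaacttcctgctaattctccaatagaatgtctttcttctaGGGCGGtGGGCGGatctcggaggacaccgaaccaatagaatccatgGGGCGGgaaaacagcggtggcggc
Tomm5 (chr4:45108115-45108363, minus strand): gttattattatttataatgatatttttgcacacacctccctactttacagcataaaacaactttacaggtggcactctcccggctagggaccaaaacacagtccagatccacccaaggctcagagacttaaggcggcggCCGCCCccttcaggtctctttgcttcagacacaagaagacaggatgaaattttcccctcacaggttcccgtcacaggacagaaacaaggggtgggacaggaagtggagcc
Timm44 (chr8:4275914-4276155, minus strand): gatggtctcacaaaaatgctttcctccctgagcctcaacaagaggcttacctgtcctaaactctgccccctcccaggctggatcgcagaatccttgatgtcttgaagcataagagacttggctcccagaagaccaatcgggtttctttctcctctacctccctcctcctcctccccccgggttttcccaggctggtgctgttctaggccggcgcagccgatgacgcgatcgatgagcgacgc
The Tomm20 match to NRF1 lay 11 to 20 bases before the RefSeq start, and the GABP match of Tomm70a 74 to 80 bases before it. A match is a run of letters and was not shown to be bound in these mice.

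No import gene passed the test between inotodiol and vehicle. Of the 25 genes, 23 passed the filter on low counts, and edgeR's quasi-likelihood test left 0 of 23 with an adjusted p under 0.05, beside 0% of the 11700 genes tested. DESeq2 and limma-voom also called 0 of 23. At an unadjusted p under 0.05 there was 1 import gene, Tomm40, which lay lower, where 4.87% of all genes tested reached that level (570 genes, 2.21% lower and 2.67% higher). The adjusted p-values of the 23 genes ranged from 0.96 to 0.998. Of the 23, 15 had a log2 fold change above 0, against 49.9% of all genes, and the values ran from -0.34 to 0.39 with a median of 0.096. The 2 rows left out by the filter were Timm8a2, with 2 counts in vehicle 2 and 0 elsewhere, and Tomm6os, a noncoding RNA on the opposite strand of Tomm6, with 2 counts in vehicle 1 and 3 in inotodiol 1.

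The intervals give the size of change that these 3 mice per group leave possible. The 95% interval of 22 of the 23 genes lay within a 2-fold change in either direction, the exception being Tomm20l, and that of 11 genes lay within a 1.5-fold change. The median standard error was 0.18 for these genes and 0.28 for all genes tested, so the import genes were measured more closely than most.

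**Figure D2:**
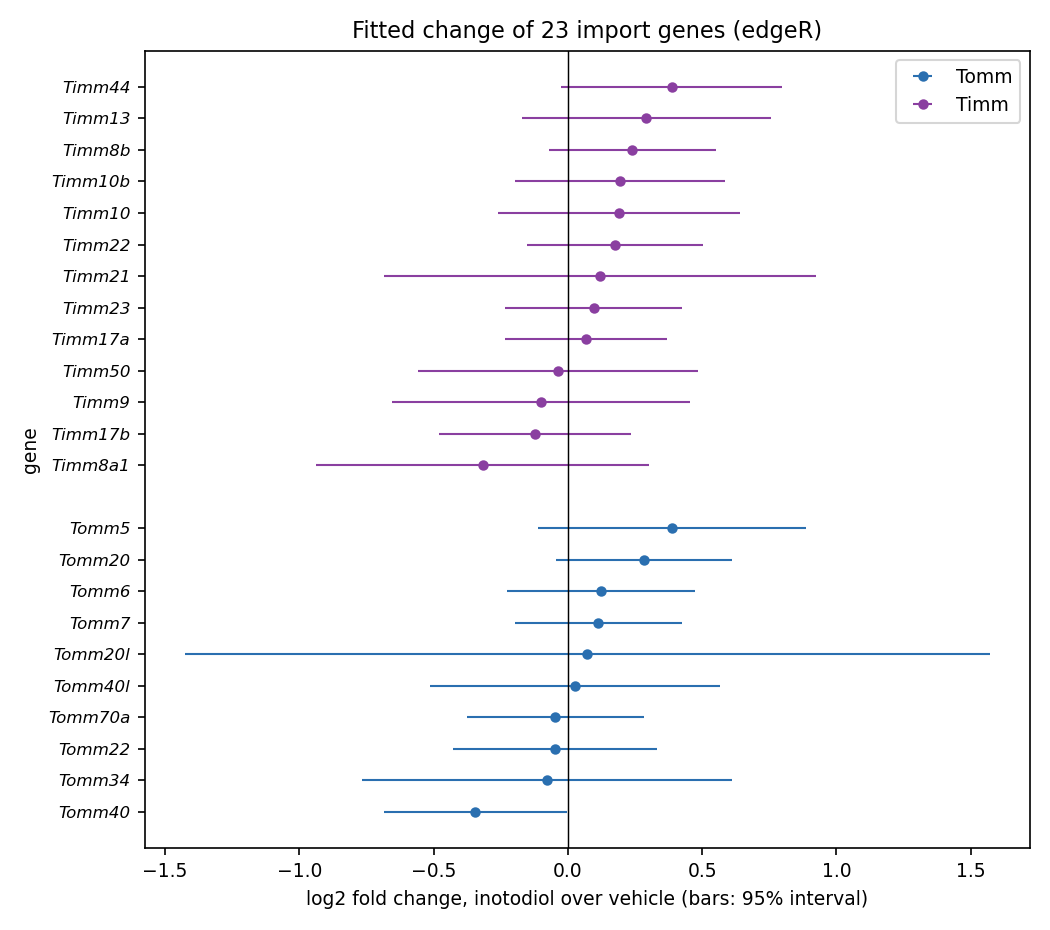
Fitted log2 fold change of inotodiol over vehicle (x axis, points) with its 95% interval (bars) for each import gene (y axis), Tomm genes below and Timm genes above. Tomm40, at -0.34, is the only one whose interval ends below 0, and Tomm20l has by far the widest interval.

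Of the outer membrane receptors, Tomm20 alone had groups that did not overlap. Tomm20, which binds presequences (chromosome 8, 126930667 to 126945844, protein-coding, upstream bases above), had 51.1, 49.3 and 51.3 CPM in vehicle 1 to 3 and 54.6, 65.5 and 64.7 CPM in inotodiol 1 to 3. All inotodiol values lay above all vehicle values, and inotodiol 1 stood closest to them. The means were 50.6 ± 1.06 and 61.6 ± 6.07 CPM (SD, n = 3). The log2 fold change with its SE was 0.28 ± 0.15, its 95% interval ran from -0.043 to 0.61, and edgeR's adjusted p was 0.96. Across 10 annotated pseudogenes the Tomm20 coding sequence recurs at 90% identity or more, and none of those has a row of its own, so part of these reads may come from copies.

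Tomm22, the central receptor that also joins the channel subunits (chromosome 15, 79670861 to 79673400), had 35.1, 29.4 and 37.0 CPM in vehicle and 33.0, 29.4 and 35.8 CPM in inotodiol libraries. The groups covered nearly the same range, and the log2 fold change was -0.048 ± 0.18. Tomm70a, the receptor for carrier precursors (chromosome 16, 57121703 to 57156705), had 56.0, 49.99 and 50.1 CPM in vehicle and 54.6, 48.9 and 47.7 CPM in inotodiol libraries. It likewise overlapped, at -0.046 ± 0.15 with a 95% interval of -0.38 to 0.28.

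The channel gene Tomm40 lay lower in every inotodiol mouse. Tomm40, the pore through which precursors cross the outer membrane (chromosome 7, 19701313 to 19715438, minus strand, protein-coding), had 49.1, 44.8 and 50.6 CPM in vehicle 1 to 3 and 34.7, 39.7 and 39.4 CPM in inotodiol 1 to 3. The means were 48.2 ± 3.00 and 37.9 ± 2.79 CPM (SD, n = 3). The log2 fold change was -0.34 ± 0.16 with a 95% interval of -0.69 to -0.0026, and edgeR gave an unadjusted p of 0.049 and an adjusted p of 0.96. No coding copy of Tomm40 at 90% identity was found, although the noncoding gene Gm20512 covers 258 exonic bases on its other strand and the counting is not known to have used strand. Its paralogue Tomm40l had 11.8, 18.7 and 20.04 CPM in vehicle and 15.2, 15.8 and 20.5 CPM in inotodiol libraries, a log2 fold change of 0.027 ± 0.25. Tomm40l shares 3304 exonic bases with Nr1i3 on the opposite strand.

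All 3 small subunits had a log2 fold change above 0, and for 1 of them the groups did not overlap. Tomm5 (chromosome 4, 45105208 to 45108114), a small partner of the channel, had 12.1, 11.7 and 12.9 CPM in vehicle and 14.4, 14.8 and 18.8 CPM in inotodiol libraries, with inotodiol 3 the highest. Its log2 fold change was 0.39 ± 0.23 with a 95% interval of -0.11 to 0.89 (edgeR's adjusted p 0.96), and it was 0.26 without inotodiol 3. Tomm6 stood at 0.12 ± 0.16 and Tomm7 at 0.11 ± 0.14, and in both the highest library was inotodiol 3 while inotodiol 2 lay under the vehicle range. Tomm34, a cytosolic co-chaperone of import, stood at -0.076 ± 0.32, and Tomm20l, a relative of Tomm20 with 9 to 42 counts per library, at 0.073 ± 0.70. Tomm20l shares 49 exonic bases with the import gene Timm9 on the opposite strand.

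**Figure D3:**
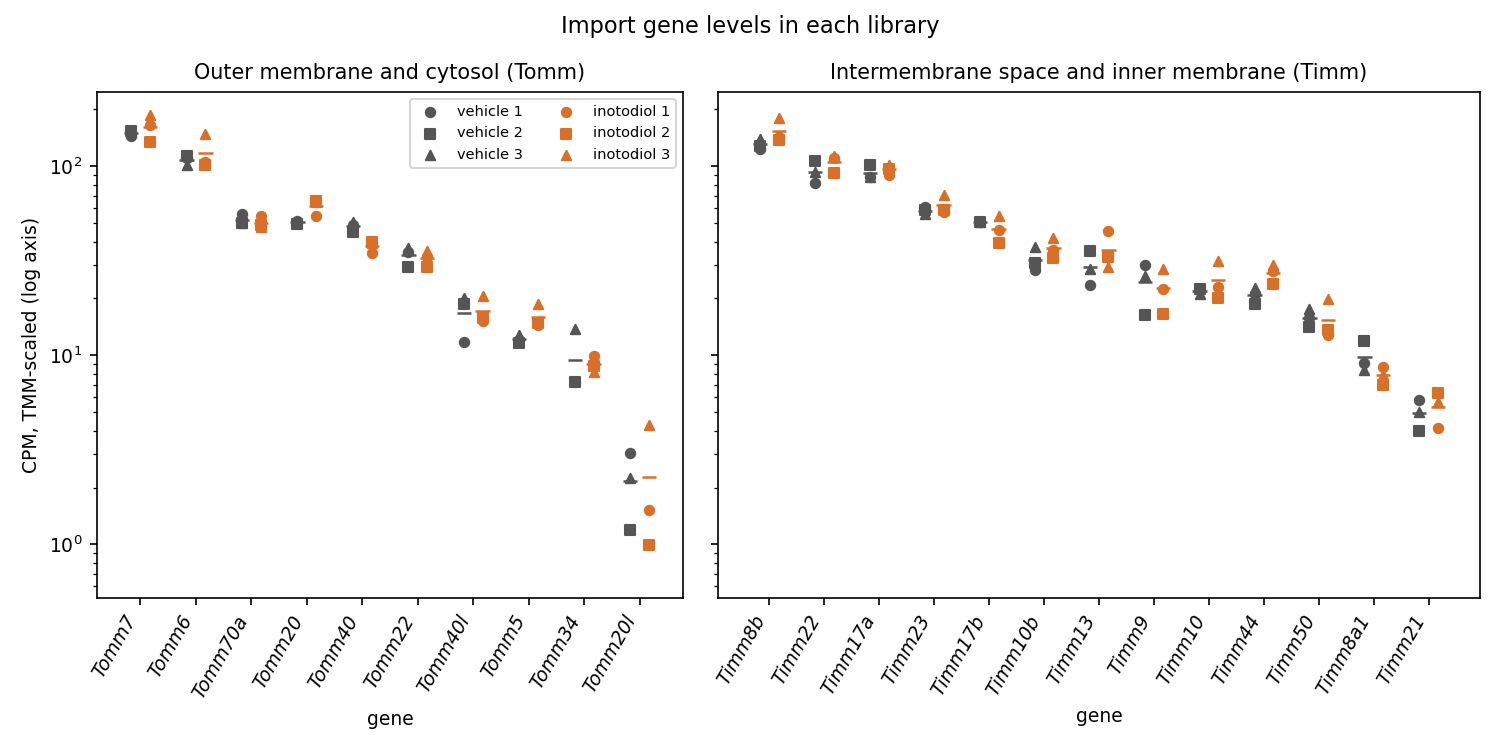
TMM-scaled CPM on a log axis (y axis) of each import gene (x axis) in the 3 vehicle and the 3 inotodiol libraries, with group means as short lines; left, Tomm, and right, Timm. Groups are apart for Tomm20, Tomm5 and Timm44 (inotodiol higher) and Tomm40 (inotodiol lower), and inotodiol 3 is the uppermost point of many genes.

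On the inner side the import motor gene Timm44 had groups that did not overlap. Timm44, which holds the motor to the channel on the matrix face (chromosome 8, 4259731 to 4275913, minus strand), had 21.2, 18.7 and 22.8 CPM in vehicle 1 to 3 and 27.9, 23.97 and 30.03 CPM in inotodiol 1 to 3. Inotodiol 2 lay just above vehicle 3. The means were 20.9 ± 2.07 and 27.3 ± 3.07 CPM (SD, n = 3). The log2 fold change was 0.39 ± 0.19 with a 95% interval of -0.026 to 0.80, and edgeR's adjusted p was 0.96.

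The channel genes of the TIM23 complex lay close to 0. Timm23, the presequence channel (chromosome 14, 32180162 to 32201898), had 60.9, 58.4 and 55.7 CPM in vehicle and 57.1, 59.03 and 70.8 CPM in inotodiol libraries, with only inotodiol 3 outside the vehicle range, and a log2 fold change of 0.096 ± 0.15. Its coding sequence recurs at 95% identity or more in 4 pseudogenes and 1 protein-coding gene without a row of their own. Timm17a had 87.6, 101 and 87.7 CPM in vehicle and 90.3, 97.2 and 102 CPM in inotodiol libraries, at 0.066 ± 0.14. Its paralogue Timm17b on the X chromosome had 50.6, 50.9 and 50.8 CPM in vehicle and 46.1, 39.2 and 54.5 CPM in inotodiol libraries, at -0.12 ± 0.17, so the 3 vehicle mice were almost equal and the inotodiol mice spread to both sides of them. Without inotodiol 3, Timm17a stood at 0.023 and Timm17b at -0.25, and without inotodiol 2 Timm17b stood at -0.011. Timm50, the presequence receptor of the complex, had 15.8, 14.1 and 17.5 CPM in vehicle and 12.8, 13.5 and 19.9 CPM in inotodiol libraries, at -0.037 ± 0.24. Timm21, which links the complex to the outer membrane, stood at 0.12 ± 0.37 on 37 to 57 counts per library.

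Timm22, the channel for carrier proteins (chromosome 11, 76406952 to 76416292), had 81.5, 106 and 92.8 CPM in vehicle and 111, 92.2 and 113 CPM in inotodiol libraries. The groups overlapped, at a log2 fold change of 0.17 ± 0.15, which was 0.084 without vehicle 1 and 0.28 without vehicle 2. Timm10b, a chaperone bound to that complex, stood at 0.19 ± 0.18, or 0.095 without inotodiol 3, and 277 of its exonic bases lie opposite to Arfip2.

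The chaperones of the intermembrane space, which act in pairs, did not lie to one side. Timm9 had 30.02, 16.4 and 26.4 CPM in vehicle and 22.6, 16.6 and 28.7 CPM in inotodiol libraries, at -0.10 ± 0.26, with the lowest value of each group in library 2. Its partner Timm10 had 22.2, 22.5 and 21.02 CPM in vehicle and 23.1, 20.2 and 31.7 CPM in inotodiol libraries, at 0.19 ± 0.21. Timm13 stood at 0.29 ± 0.22 and Timm8b at 0.24 ± 0.14, while Timm8a1, the other partner of Timm13, stood at -0.32 ± 0.29. Single libraries set much of these values: Timm13 stood at 0.090 without inotodiol 1, Timm8b at 0.11 without inotodiol 3 and Timm8a1 at -0.15 without vehicle 2. None of the 5 had groups apart in scaled CPM.

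Over the 23 genes the groups were apart for 4, of which Tomm20, Tomm5 and Timm44 were higher and Tomm40 lower with inotodiol, where 10.4% of all genes tested were apart (5.15% higher, 5.26% lower). With CPM of the library total alone, without TMM scaling, the groups of Tomm20, Tomm5 and Timm44 overlapped. Those of Tomm40 and Timm8a1 were apart and lower. On that scale 2.15% of all genes were apart and higher and 10.4% apart and lower. The part of Rn45s in this was not tested. The direction of all 4 genes was kept in each of the 15 other settings and subsets of libraries. The log2 fold changes ran from -0.46 to -0.28 for Tomm40 and from 0.17 to 0.36 for Tomm20. They ran from 0.26 to 0.46 for Tomm5 and from 0.27 to 0.47 for Timm44. These genes were picked because their groups were apart, so leaving out any library could hardly turn their direction. The other settings used the same libraries, so the kept direction is not a separate result.

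Summed over each part, outer and inner genes did not part the groups. The 11 Tomm genes together had 481, 478 and 491 CPM in vehicle 1 to 3 and 488, 459 and 574 CPM in inotodiol 1 to 3. The 14 Timm genes had 559, 599 and 594 CPM in vehicle and 628, 580 and 716 CPM in inotodiol libraries. In both parts inotodiol 2 lay within or under the vehicle range and inotodiol 3 far above it. The means were 484 ± 6.998 and 507 ± 59.5 CPM for Tomm, and 584 ± 21.8 and 641 ± 69.1 CPM for Timm (SD, n = 3). Tomm7 gave 31.5% of the Tomm counts and Timm8b 23.2% of the Timm counts, so these sums lean on a few abundant genes.

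The ratio of the outer to the inner sum, which no scaling of a library can alter, was 0.860, 0.798 and 0.827 in vehicle 1 to 3 and 0.778, 0.793 and 0.802 in inotodiol 1 to 3. The vehicle value nearest to the inotodiol ones, from vehicle 2, lay below that of inotodiol 3, so the groups overlapped. The difference of the mean log2 ratios was -0.067, at a pooled SD of 0.041. Gene by gene, 6 of 10 Tomm and 9 of 13 Timm genes lay above 0, with median log2 fold changes of 0.050 and 0.12, beside -0.00073 for all genes tested. These are described without a test.

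One library set much of the level of the import genes. Inotodiol 3 had the highest CPM of all 6 libraries in 14 of the 23 genes (5 Tomm, 9 Timm), and it was the highest in 19.7% of all genes tested. The mean log2 level of the Tomm genes stood 0.24 above their mean over all libraries in inotodiol 3. The same measure was -0.052 in inotodiol 1, -0.13 in inotodiol 2 and -0.023, -0.13 and 0.10 in the vehicle libraries. For the Timm genes it was 0.21 in inotodiol 3, 0.016 in inotodiol 1, -0.095 in inotodiol 2 and -0.058, -0.058 and -0.013 in the vehicle libraries. Without inotodiol 3, 9 of the 23 genes lay above 0 in place of 15, and the medians were -0.045 for Tomm and 0.023 for Timm. A list of 19 genes for mitochondrial content stood 0.15 above its mean in the same library, which also had the highest summed level of 7 Schwann cell markers, at 200 unscaled CPM against 70.2 to 102 elsewhere, and the lowest of the 12 muscle markers. Their part in the result was not tested.

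**Figure D4:**
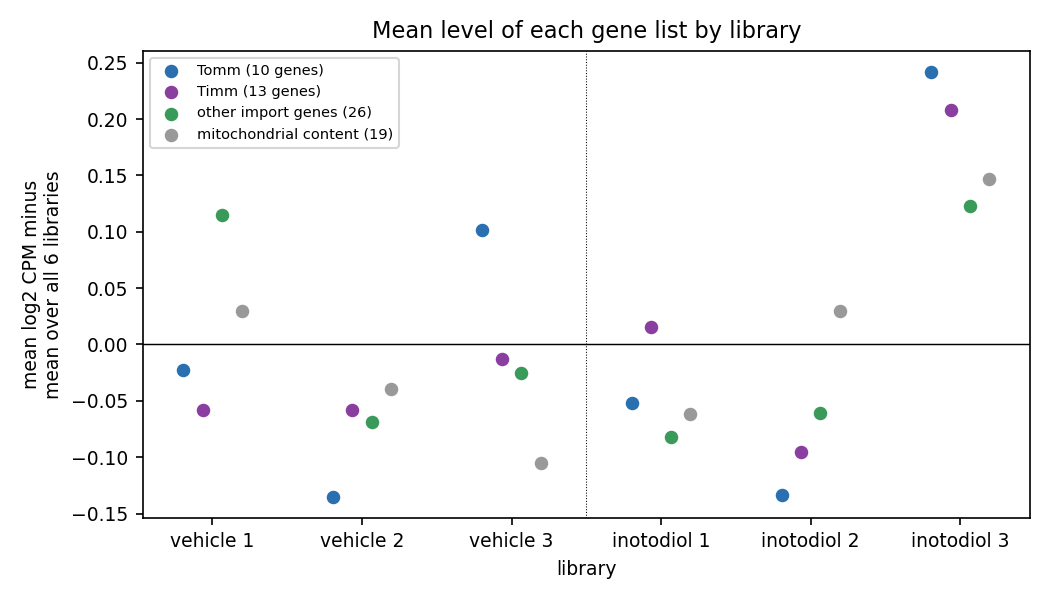
Mean log2 CPM of 4 gene lists (colours) in each library (x axis) relative to their mean over all 6 libraries (y axis). Inotodiol 3 holds the highest point of each list, 0.24 for Tomm and 0.21 for Timm, while for Timm inotodiol 1 lies above and inotodiol 2 below all vehicle libraries.

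Within a library the receptor and the channel of the outer membrane had a ratio that differed between the groups without overlap. Counts of Tomm20 over counts of Tomm40 gave 1.04, 1.10 and 1.01 in vehicle 1 to 3 and 1.57, 1.65 and 1.64 in inotodiol 1 to 3. The means were 1.05 ± 0.045 and 1.62 ± 0.043 (SD, n = 3), and inotodiol 3 was no longer set off from the other 2. The difference on the log2 scale was 0.62, and leaving out any 1 library gave 0.60 to 0.66. The size of such a ratio also depends on transcript length and counting, and only its change between libraries is read here. Tomm20 was already apart and higher and Tomm40 apart and lower, so their ratio had to be apart and adds no separate result. This pair was picked after its values had been seen, so no test is given. Among all 253 pairs of the 23 genes, 43 had ratios that did not overlap between the groups, and Tomm40 was in 12 of those 43. The share of such pairs among all genes tested was not computed. The 253 pairs also reuse the same 23 genes, some of them apart when taken alone. Whether 43 pairs, or 12 with Tomm40, are many can therefore not be judged. Set against its pooled SD, the difference of Tomm20 and Tomm40 ranked 2 of 253, after that of Timm44 and Tomm22. The pooled SDs of these 2 pairs were 0.051 and 0.033 on the log2 scale. An SD from 3 mice per group can be small by accident, and these were not compared with counting error. The rank is therefore not read as a result.

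The other ratios to Tomm40 had larger SDs than that of Tomm20 in the inotodiol libraries, but not all of them did in vehicle. Tomm5 over Tomm40 was 0.254 ± 0.0067 in vehicle and 0.421 ± 0.053 in inotodiol libraries, and Tomm22 over Tomm40 was 0.701 ± 0.040 and 0.866 ± 0.11 (SD, n = 3). For Tomm70a it was 1.08 ± 0.081 and 1.34 ± 0.20 and for Tomm6 2.26 ± 0.26 and 3.11 ± 0.61. These 4 ratios were apart as well, whereas that of Tomm7 overlapped. All of them share Tomm40, which was itself apart and lower, so they are not separate results. The groups of Tomm22, Tomm70a and Tomm6 overlapped when each gene was taken alone. On the inner side Timm44 over Timm23 was 0.359 ± 0.046 and 0.440 ± 0.043, with overlap at 0.409 in vehicle 3 and 0.406 in inotodiol 2. The ratios of the paralogues Timm17a and Timm17b and of the partners Timm9 and Timm10 overlapped too, while Timm8a1 over Timm13 was apart, at 0.337 ± 0.049 and 0.224 ± 0.041.

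**Figure D5:**
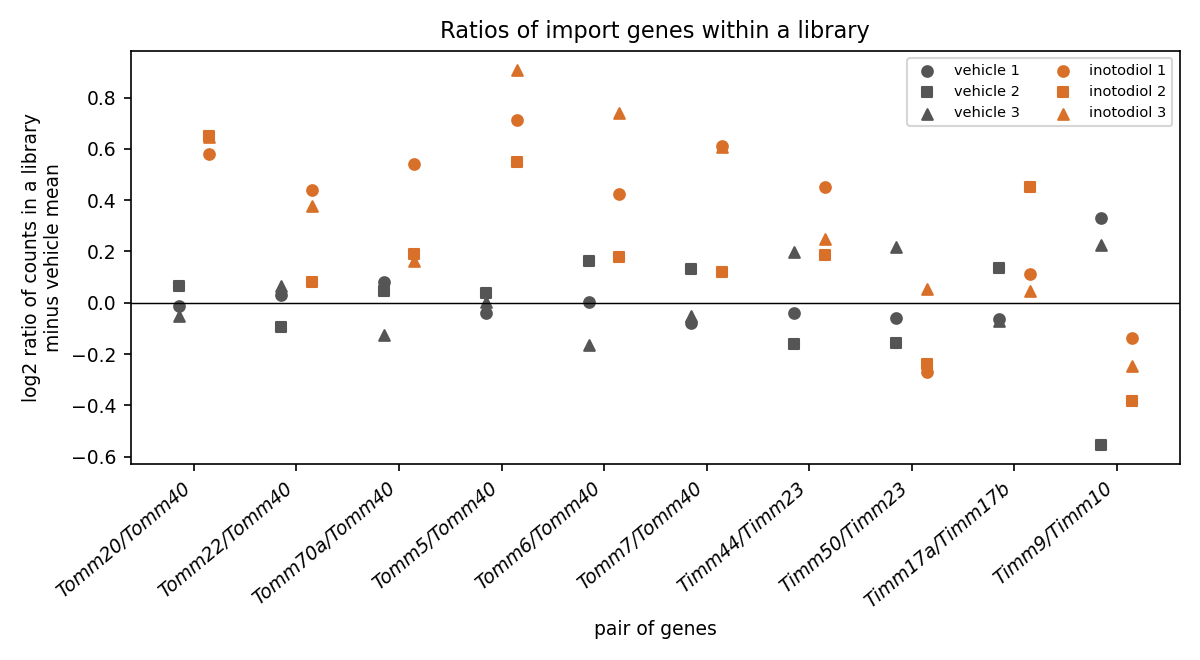
Log2 ratio of the counts of 2 import genes in 1 library (y axis, relative to the vehicle mean) for 10 pairs (x axis). The Tomm20 to Tomm40 points of the 3 inotodiol libraries lie together about 0.62 above those of vehicle, whereas in the 4 Timm pairs plotted the groups overlap.

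Of 27 further genes of the import route, 26 were tested and 0 had an adjusted p under 0.05 in edgeR. At an unadjusted p under 0.05 there were 2 higher and 2 lower, where 2.67% of all genes tested were higher and 2.21% lower at that level. Of the 26, 17 lay above 0, against 49.9% of all genes, with a median of 0.082. Groups were apart and higher for 2 of the 26 and apart and lower for 3. Of all genes tested, 5.15% were apart and higher and 5.26% apart and lower. The third gene apart and lower, Pitrm1, stood at -0.36 ± 0.23. The 2 lower ones at an unadjusted p under 0.05 encode both subunits of the peptidase that removes presequences in the matrix. Pmpcb had 60.8, 71.4 and 58.9 CPM in vehicle and 31.2, 56.3 and 40.1 CPM in inotodiol libraries, and Pmpca had 61.7, 51.7 and 63.1 CPM in vehicle and 34.0, 48.2 and 49.5 CPM in inotodiol libraries. Both were lower in every inotodiol mouse, at log2 fold changes of -0.58 ± 0.20 and -0.42 ± 0.18 (edgeR's adjusted p 0.94 and 0.96). Without inotodiol 1, Pmpca stood at -0.27.

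The 2 higher ones encode the J-domain proteins of the import motor, which Timm44 joins. Dnajc19 had 20.96, 19.002 and 19.5 CPM in vehicle and 24.5, 28.4 and 26.6 CPM in inotodiol libraries, and Dnajc15 had 40.9, 36.1 and 32.1 CPM in vehicle and 43.7, 44.05 and 57.7 CPM in inotodiol libraries. Their groups did not overlap, and the log2 fold changes were 0.42 ± 0.19 and 0.42 ± 0.18 (edgeR's adjusted p 0.96 for both). Without inotodiol 3, Dnajc15 stood at 0.27. The Hsp70 of the motor, Hspa9, stood at -0.042 ± 0.14 and its nucleotide exchange factor Grpel1 at -0.060 ± 0.17, both well within their standard errors.

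Genes that respond when import or folding in mitochondria fails were mixed, with 7 of 14 tested above 0 and a median of 0.00032. The transcription factor genes Atf5 and Atf4 had log2 fold changes of 0.37 ± 0.15 and 0.33 ± 0.15 (edgeR's adjusted p 0.96 for both), and the groups of Atf4 overlapped. Their known targets Trib3 and Asns, both at most 4.92 CPM in any library, stood at 1.47 ± 0.91 and -1.05 ± 0.67. Trib3 stood at 0.31 without inotodiol 3 and at 0.75 with limma-voom, Asns at -0.60 without vehicle 1, and Atf4 at 0.22 without inotodiol 3. Of the 19 genes for mitochondrial content, 14 lay above 0 with a median of 0.071. That was less than the median of the Timm and more than that of the Tomm genes. In edgeR 0 of the 19 had an adjusted p under 0.05. At an unadjusted p under 0.05 there were 2, both higher, beside 2.67% of all genes tested. Groups were apart for 4 of the 19, all higher, beside 5.15% of all genes tested. The 4 with the smallest p were Ndufv1 at 0.35 ± 0.13, Cycs at 0.28 ± 0.13, Mdh2 at 0.18 ± 0.11 and Sdhb at 0.17 ± 0.12. The groups of Sdhb overlapped, and the fourth gene with groups apart was Uqcrc2. Without inotodiol 3, Ndufv1 stood at 0.22 and Sdhb at 0.092.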

How the data were processed

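RNA of 6 gastrocnemius samples, 3 per group, was counted per gene. Each deposited table holds whole-number read counts per gene symbol, not normalized, and per the submitters' processing notes the authors used Bowtie2 and bedtools with mm10. The annotation is not given in the sources used here, nor are tool versions or strand. A Lexogen Quant-Seq kit was used on total RNA, per the labels' protocols. Whether counts rise with transcript length was not settled, so levels are not compared between genes.

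The labels call the samples biological replicates. Genes were kept by edgeR's filterByExpr (minimum count 10, total 15), leaving 11700 of 23282 rows. Counts were TMM-scaled and tested with edgeR 4.0.16 (R 4.3.3, quasi-likelihood, two-sided, group only, Benjamini-Hochberg at 0.05). SE came from the fitted weights and moderated dispersion. The test was checked on simulated counts, with a pass mark set on far larger changes than those of the import genes. Other settings were scaling by RLE, by upper quartile or by library totals, filters of any count or of 1 CPM in each of the 6 samples, the tools DESeq2 1.42.0 and limma-voom (limma 3.58.1), the replicate block and each library left out; removing hepatocyte, pancreas and Rn45s rows was added after seeing the data. The replicate numbers were not taken to pair mice.

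Genes and lists were chosen with earlier results of these data known. Values in every library were set to be given for import genes with an unadjusted p under 0.05 or groups apart and for a core set of subunits, and up to 4 genes with the smallest p, plus Hspa9 and Grpel1, from other lists. Coordinates are from GENCODE M21 (GRCm38, the assembly of mm10). Coding sequences were compared with annotated transcripts by blastn 2.17.0 (at least 90% identity over 50% of the sequence). Besides Tomm20 and Timm23, such copies were found for Tomm6, Tomm7, Tomm22, Timm8a1, Timm10b, Timm17a, Timm17b and Timm21. The copy of Timm8a1, Gm9797, was 100% identical. Of all these copies only Tomm6os has a row of its own, so reads of the named genes may partly come from copies. Promoter windows span 250 bases before to 50 after the RefSeq start. Motifs and gene pairs were chosen after seeing the data. Marker lists were of skeletal muscle, hepatocytes, exocrine pancreas, macrophages, Schwann cells, erythroid cells, adipocytes, endothelium and fibroblasts; among the lists not given in the results, the summed unscaled CPM in vehicle and inotodiol libraries were 107 to 280 and 61.6 to 182 for macrophages, 5610 to 7964 and 4374 to 13980 for erythroid, 150.1 to 309 and 126 to 281 for adipocyte, 75.3 to 107 and 82.8 to 91.3 for endothelial and 1045 to 2009 and 879 to 1149 for fibroblast genes.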

Additional observations from a re-analysis of the deposited data

How the results depend on the processing

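In each setting 0 import genes passed the adjusted threshold. Over all genes the count of calls was 0, but 95 with no filter on low counts, 1 with DESeq2 and 0 to 25 with single libraries left out, the 25 without inotodiol replicate 3. Deviations of same-numbered samples correlated at -0.081, 0.11 and 0.022, and those of differently numbered samples at -0.13 to 0.097. With the replicate block 0 genes were called and Tomm40 stood at -0.34. Library-total scaling moved the median of all genes by over 0.1, to -0.12. With it the Timm median was 0.00014, the Tomm median -0.050, and Timm17a, Timm23, Tomm40l and Tomm20l lay at -0.046, -0.016, -0.080 and -0.019, opposite to their signs with TMM scaling. Tomm20l also turned to -0.078 with limma-voom and -0.084 with the replicate block. With single libraries left out the Tomm median ranged from -0.045 to 0.15, the Timm median from 0.023 to 0.15 and the outer to inner difference from -0.093 to -0.039. Over the same subsets the sign was not kept by Timm9 (-0.31 to 0.079), Timm10 (-0.017 to 0.32), Timm21 (-0.014 to 0.28), Timm23 (-0.0075 to 0.16), Timm50 (-0.26 to 0.082), Tomm6 (-0.073 to 0.22), Tomm7 (-0.0023 to 0.23), Tomm20l (-0.78 to 0.43), Tomm22 (-0.13 to 0.024), Tomm34 (-0.23 to 0.30), Tomm40l (-0.17 to 0.17), Tomm70a (-0.11 to 0.0097), Hspa9 (-0.098 to 0.059) and Grpel1 (-0.19 to 0.064). The unadjusted p of Tomm40 ranged from 0.021 (library totals) to 0.14 (without inotodiol replicate 1). The cause of these changes was not tested.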

Other observations

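Both genes of the channel lie beside apolipoprotein genes. Tomm40 is 2125 bases from Apoe, a lipoprotein gene for which vehicle muscle had 94.8 and inotodiol muscle 118 CPM on average, a log2 fold change of 0.31 ± 0.30 with overlapping groups, beside -0.34 ± 0.16 for Tomm40. Tomm40l is 2540 bases from Apoa2, one of the hepatocyte markers, at 2.07 ± 0.64 beside 0.027 ± 0.25 for Tomm40l. The 2 neighbours were named after their values were seen, and 0 of the 4 genes passed edgeR's adjusted threshold.

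Of the import genes, 4 lie head to head with a protein-coding gene 51 to 164 bases away. Timm8b is paired in this way with Sdhd, a complex II subunit (98 bases), Timm17b with Pqbp1 (88 bases), Timm23 with Parg (51 bases) and Timm9 with 2700049A03Rik (164 bases). Their partners had log2 fold changes of -0.49 ± 0.31, 0.092 ± 0.20, 0.092 ± 0.22 and -0.88 ± 0.52, against 0.24 ± 0.14, -0.12 ± 0.17, 0.096 ± 0.15 and -0.10 ± 0.26 for the import genes themselves. Tomm6 also lies head to head with Frs3, at 644 bases, but Frs3 was not among the genes tested. Pairs whose starts overlap were not counted.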
